A study of Homo sapiens with 18 samples.

Results

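The genes described here are 9 of the 59421 gene symbols that the deposited tables hold, taken by name: the galectin genes LGALS1, LGALS3, LGALS8 and LGALS9, the S100 genes S100A4, S100A6, S100A10 and S100A11, and the vimentin gene VIM. LGALS1 and S100A6 were selected on their measured values in MM1S, where both were lower in both comparisons, so their MM1S values are given as a description, with no test. The other 7 stand beside them as relatives, and were tested wherever they passed a filter on low values, as were the members in H929, which the choice did not use. H929 and MM1S are established human multiple myeloma lines, and the study asked what loss of the splicing factor RBM39 does to their transcripts. In H929, 3 libraries labelled shRBM39, from cells given a short hairpin RNA against RBM39, stood against 3 labelled scramble. In MM1S, 2 shRBM39 libraries stood against 2 scramble libraries, and 3 libraries from cells treated with indisulam, a sulfonamide that glues RBM39 to the ubiquitin ligase receptor DCAF15 so that the protein is degraded, against 3 from cells given DMSO. RNA immunoprecipitation (RIP) from MM1S gave 1 library pulled down with anti-RBM39 and 1 with IgG as its control. The labels name neither the hairpins nor a dose or time, nor say whether replicates were grown separately, so p-values measure the spread between these libraries, which may be technical.

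Galectins are lectins that bind galactose-containing sugars on glycoproteins. Galectin-1 (LGALS1) and galectin-3 (LGALS3) are made in the cytosol, leave the cell without a signal peptide, and can crosslink surface receptors; galectin-1 is known in myeloma and other tumours for effects on adhesion, blood vessel growth and T cell survival. S100 proteins are small EF-hand proteins, most of which change shape on binding calcium and then grip target proteins such as annexins. Vimentin is the intermediate filament protein of mesenchymal and lymphoid cells.

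Some facts of the libraries bear on every value. RBM39 itself was at 35.6 to 38.6 FPKM (fragments per kilobase and sequencing depth) in the H929 libraries labelled shRBM39, against 4.43 to 4.56 FPKM in those labelled scramble, which is opposite to the labels. The H929 groups are therefore given as labelled, and no H929 difference is read as an effect of knockdown. In MM1S, RBM39 was at 52.2 and 64.8 TPM (transcripts scaled to a fixed total) with shRBM39, against 176.3 and 204.6 TPM with scramble, and its transcript overlapped between indisulam, at 149.4 to 226.5 TPM, and DMSO, at 178.3 to 196.0 TPM. The plasma cell label held: 9 of 10 plasma cell markers reached 1 FPKM or TPM in each library of each group apart from indisulam, where 8 did. Relative to scramble replicate 1, depth in the other 5 H929 libraries was 0.975 to 1.15, and depth in MM1S is unknown. The H929 column totals were 409102 to 428099 FPKM in the libraries labelled shRBM39, against 374512 to 374807 FPKM in those labelled scramble. Bulk values cannot tell fewer cells of a type from less RNA per cell.

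The 250 bases before the RefSeq start were matched for 8 of the 9 genes, with LGALS1 unmatched. They are shown for S100A6, S100A10 and VIM, which were lower in both MM1S comparisons, and for S100A11, which overlapped between groups in one of them. LGALS3 was also lower without overlap in both and is not shown. Its window held 3 GC box matches and was 78.8% GC. The sequences are RefSeq's, from GRCh38.p14, with each window read 5′ to 3′ on the gene's strand and matches to the GC box GGGCGG in capitals, on either strand.
S100A6, chr1:153535992-153536241, minus strand: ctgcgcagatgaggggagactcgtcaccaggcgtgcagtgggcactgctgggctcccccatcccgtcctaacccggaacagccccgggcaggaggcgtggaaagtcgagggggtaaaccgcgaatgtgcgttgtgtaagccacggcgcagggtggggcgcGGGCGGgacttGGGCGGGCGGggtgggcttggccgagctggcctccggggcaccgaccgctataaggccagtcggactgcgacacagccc
S100A10, chr1:151993860-151994109, minus strand: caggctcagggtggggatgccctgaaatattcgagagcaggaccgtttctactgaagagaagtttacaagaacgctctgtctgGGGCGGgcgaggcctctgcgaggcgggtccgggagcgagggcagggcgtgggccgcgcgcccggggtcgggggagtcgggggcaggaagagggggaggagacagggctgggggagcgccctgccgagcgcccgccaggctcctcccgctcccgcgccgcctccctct
S100A11, chr1:152037005-152037254, minus strand: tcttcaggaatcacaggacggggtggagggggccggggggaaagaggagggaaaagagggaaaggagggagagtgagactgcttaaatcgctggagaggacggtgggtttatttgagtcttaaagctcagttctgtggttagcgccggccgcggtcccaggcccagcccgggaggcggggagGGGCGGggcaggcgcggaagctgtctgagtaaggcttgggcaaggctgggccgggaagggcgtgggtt
VIM, chr10:17227991-17228240, plus strand: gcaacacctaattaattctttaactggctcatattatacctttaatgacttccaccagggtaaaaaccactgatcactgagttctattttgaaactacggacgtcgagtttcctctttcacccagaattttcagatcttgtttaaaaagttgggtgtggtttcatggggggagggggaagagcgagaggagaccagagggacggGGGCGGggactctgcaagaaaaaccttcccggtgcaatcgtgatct

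The window of S100A6 held 3 GC box matches, of which 2 overlap each other, and those of S100A10, S100A11 and VIM held 1 each; no GC box match overlapped another motif searched. Of 35116 windows of the same length, 42.6% held that motif. None of these 4 windows matched the TATA box letters TATAAA, found in 10.7% of windows, or the AP-1 letters TGANTCA, found in 6.57%, on either strand. GC made up 70% of the S100A6 window, 71.2% of that of S100A10, 63.6% of that of S100A11 and 46% of that of VIM, against a median of 58% over all windows. These matches describe the letters and were not tested for a link to the expression values.

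In MM1S, galectin-1, vimentin and S100A10 transcripts were all lower after both ways of targeting RBM39, while galectin-8 and S100A4 were not separated downwards in either. Galectin-1 is among the most abundant messages of this line: by mean level it ranked 83 of 25857 genes above 0 in DMSO and 115 of 24323 with scramble. Among the 9 genes in DMSO the order was LGALS1 at 2128 TPM, S100A11 at 1243 TPM, VIM at 539.7 TPM and S100A10 at 82.4 TPM. LGALS8 followed at 13.2 TPM, then S100A6 at 7.32 TPM and LGALS3 at 7.01 TPM, whose libraries overlap, and last LGALS9 at 0.717 TPM and S100A4 at 0.0567 TPM. Values in TPM are scaled per length, so this order compares levels between genes.

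LGALS1 was at 155.5 and 232 TPM in the shRBM39 libraries of MM1S, against 1437 and 1283 TPM in the scramble libraries. Under indisulam it was at 366.6, 315.3 and 425.2 TPM, against 2046, 2256 and 2082 TPM in DMSO. All treated libraries lay far below all of their controls, and scramble was 7.02 times shRBM39 and DMSO 5.77 times indisulam by the means. The log2 difference was -2.83 with shRBM39 and -2.53 with indisulam. By rank the gene stood 462 of 24685 with shRBM39 and 255 of 26167 with indisulam.

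S100A6 (calcyclin), a calcium sensor that binds the ubiquitin ligase adaptor CACYBP and several annexins, is a low-level gene in this line. It was at 4.73 and 6.58 TPM with shRBM39, against 15.7 and 13.7 TPM with scramble, and at 2.64, 3.85 and 2.76 TPM with indisulam, against 7.52, 6.79 and 7.65 TPM in DMSO. Neither pair of groups overlapped. The log2 differences were -1.25 and -1.04, and the values lie low enough for the pseudocount to shrink them: with 0.1 in place of 1 the indisulam difference was -1.24.

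**Figure D1:**
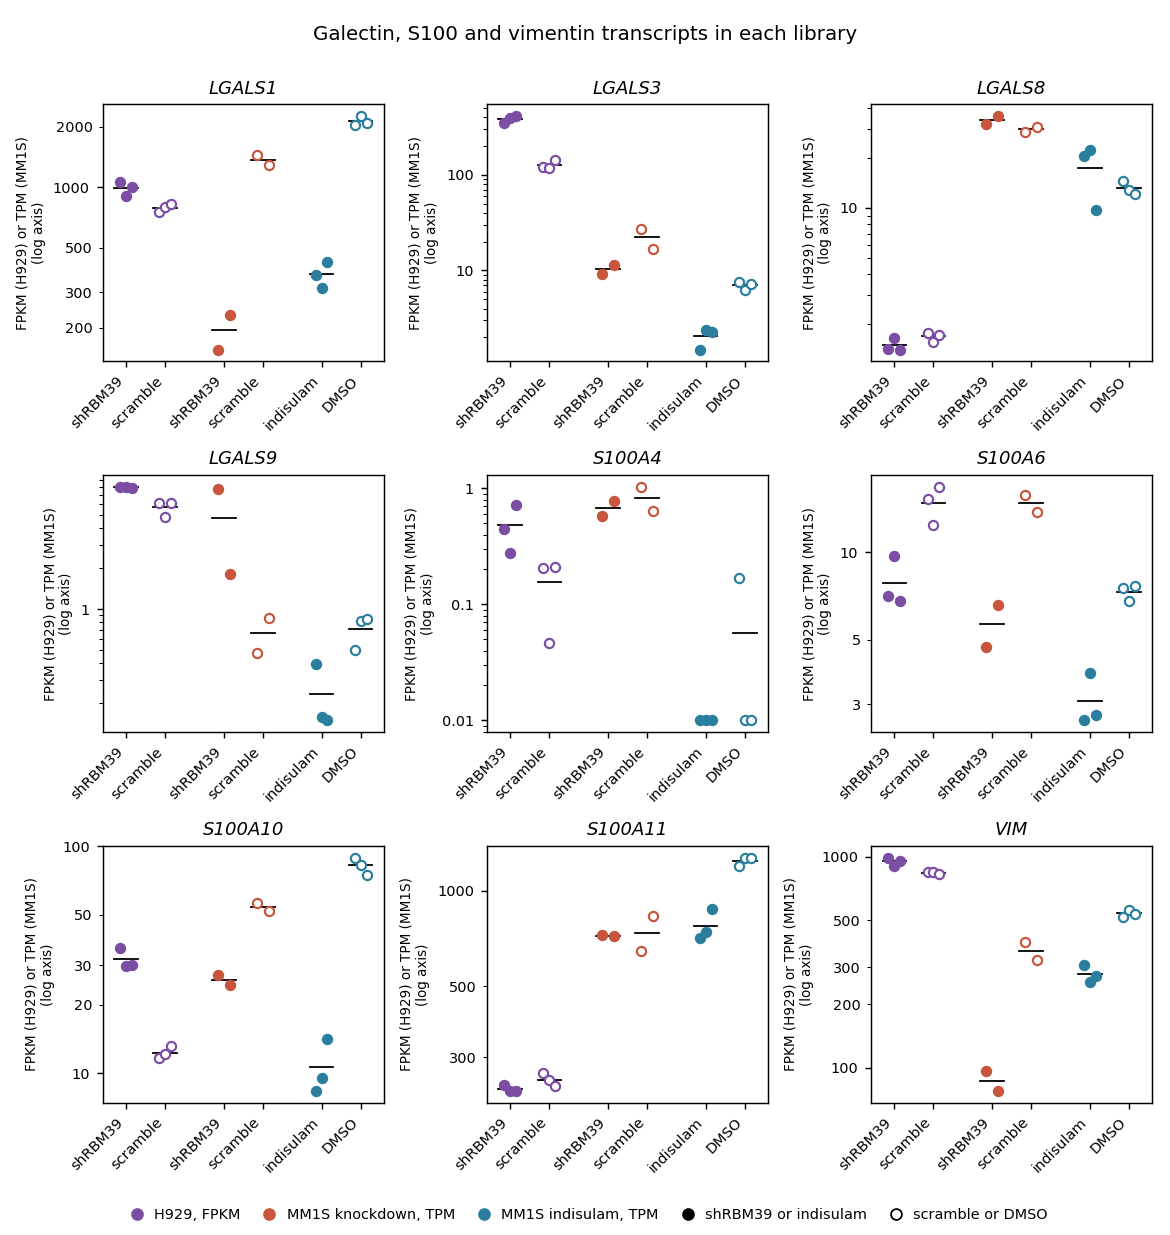
Level of each of the 9 genes in each of the 16 expression libraries, in FPKM for H929 and TPM for MM1S, on log axes; filled points are shRBM39 or indisulam libraries, open points scramble or DMSO libraries, lines are group means, and values of 0 are drawn at 0.01. LGALS1, LGALS3, S100A6, S100A10 and VIM lie lower in filled than open points in both MM1S comparisons. LGALS8 overlaps with indisulam, where 1 library is at 9.7 TPM.

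VIM fell in both MM1S comparisons. It was at 96.4 and 77.5 TPM with shRBM39, against 394.6 and 322.9 TPM with scramble, a log2 difference of -2.03 ± 0.171 (SE, adjusted p = 0.0116 by limma). Indisulam libraries had it at 308.7, 254.7 and 271.2 TPM, against 521.1, 560.9 and 537 TPM in DMSO, a log2 difference of -0.96 ± 0.0921 (SE, adjusted p = 5.95e-04 by limma). The groups were apart both times. VIM-AS1, the antisense gene beside VIM, was at 2.32 and 2.57 TPM with shRBM39, against 3.88 and 3.86 TPM with scramble, and at 5.41 to 7.01 TPM with indisulam, against 10.2 to 11.8 TPM in DMSO. The labels do not say that counting used strand, so reads from any stretch that both genes cover may have been counted to either.

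S100A10 (p11), which unlike other S100 proteins is held in its open form without calcium and pairs with annexin A2, fell in both. It was at 27.2 and 24.6 TPM with shRBM39, against 56.2 and 52.2 TPM with scramble, a log2 difference of -1.04 ± 0.132 (SE, adjusted p = 0.019 by limma). In the indisulam comparison it was at 8.33, 9.55 and 14.2 TPM, against 89.2, 83.2 and 74.9 TPM in DMSO, a log2 difference of -2.86 ± 0.194 (SE, adjusted p = 1.77e-04 by limma). DMSO was 7.72 times indisulam by the means. The 2 tables were normalized separately, so the 2 differences stand side by side untested.

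S100A11, a binding partner of annexin A1, was the most abundant S100 gene. Its libraries overlapped in the knockdown, at 723.2 and 718.6 TPM with shRBM39, against 644.4 and 831.2 TPM with scramble, at a log2 difference of -0.02 ± 0.147 (SE, adjusted p = 0.937 by limma) whose sign turned with quantile normalization and with median scaling. With indisulam it fell to 707.6, 738.9 and 875.7 TPM, against 1197, 1268 and 1263 TPM in DMSO, a log2 difference of -0.69 ± 0.0977 (SE, adjusted p = 0.00254 by limma). After median scaling that call was lost, at a difference of -0.68 (adjusted p = 0.0715 by limma). S100A4, a metastasis-associated S100 protein that binds non-muscle myosin, was at 0.58 and 0.78 TPM with shRBM39, against 1.03 and 0.64 TPM with scramble. It was listed at 0 in all indisulam libraries and in 2 of 3 DMSO libraries, so no change could be read.

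The galectin relatives of LGALS1 differed from it and from each other. LGALS3, which also acts in the nucleus and in pre-mRNA splicing, was at 9.24 and 11.4 TPM with shRBM39, against 27.4 and 16.9 TPM with scramble; the groups were apart, but the log2 difference of -1.003 ± 0.261 (SE, adjusted p = 0.0692 by limma) did not pass. With indisulam it fell to 1.49, 2.41 and 2.26 TPM, against 7.54, 6.23 and 7.25 TPM in DMSO, a log2 difference of -1.40 ± 0.19 (SE, adjusted p = 0.00204 by limma).

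LGALS8, a galectin with a pair of sugar-binding domains that marks damaged endosomes, was at 32 and 35.8 TPM with shRBM39, against 28.6 and 30.8 TPM with scramble, a log2 difference of 0.18 ± 0.135 (SE, adjusted p = 0.406 by limma). With indisulam it was at 20.6, 22.2 and 9.7 TPM, against 14.6, 12.8 and 12.2 TPM in DMSO, a log2 difference of 0.31 ± 0.299 (SE, adjusted p = 0.47 by limma). Replicate 3 with indisulam alone lay below all DMSO libraries. Without it the difference was 0.66 (adjusted p = 7.24e-04 by limma), past the threshold. In that setting 4945 of all 13445 genes tested were called higher, against 1139 with all libraries. The call therefore does not set LGALS8 apart. LGALS9, a ligand of the T cell surface protein TIM-3, was at 7.68 and 1.81 TPM with shRBM39, against 0.47 and 0.86 TPM with scramble. It passed the filter only through the group where it was high, so its log2 difference of 1.58 is given with no test. The value rests on 1 library: the difference was 0.77 without shRBM39 replicate 1 and 2.39 without shRBM39 replicate 2. Under indisulam it was at 0.15 to 0.39 TPM, against 0.5 to 0.84 TPM in DMSO, below the filter of 1 TPM. Its near-identical copies LGALS9B and LGALS9C were at 0 to 0.82 TPM with shRBM39, against 0.87 to 2.24 TPM with scramble, so reads may be shared and LGALS9 is uncertain.

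In the knockdown, 8 of the 9 genes passed the filter, and of the 6 that the choice had not used, LGALS9 among them, 2 were called lower and 0 higher, where 10.3% of all 14152 genes tested were called, 6.35% lower and 3.97% higher (after median scaling 46.8% of all calls were higher, and 38.5% as deposited). At an unadjusted p below 0.05, 4556 genes passed. With indisulam, 7 of the 9 passed the filter and 4 of 5 were called lower, against 21.5% of all 13445 genes tested, and 0 higher, against 8.47%, with 29.9% called in either direction. Of all indisulam calls, 28.3% were higher as deposited, 46.7% after median scaling and 52.1% after quantile normalization. Among the same 6 genes in the knockdown, groups did not overlap for 3 that were lower and 2 that were higher, of which LGALS9 passed the filter through 1 group alone, where 62.4% of all genes tested did not overlap, 31.9% lower and 30.5% higher. Among the 5 with indisulam, 4 were lower and 0 higher without overlap, where 47.3% of all genes tested did not overlap, 32.3% lower and 14.9% higher. In the knockdown the calls rest on both scramble libraries. Without scramble replicate 1, 0 of all genes passed in limma, with 2444 at an unadjusted p below 0.05, and VIM had a difference of -1.89 (adjusted p = 0.146 by limma) and S100A10 one of -0.99 (adjusted p = 0.189 by limma); without scramble replicate 2, again 0 genes passed, with 2565 at an unadjusted p below 0.05 and VIM at -2.18 (adjusted p = 0.13 by limma) and S100A10 at -1.09 (adjusted p = 0.15 by limma).

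**Figure D2:**
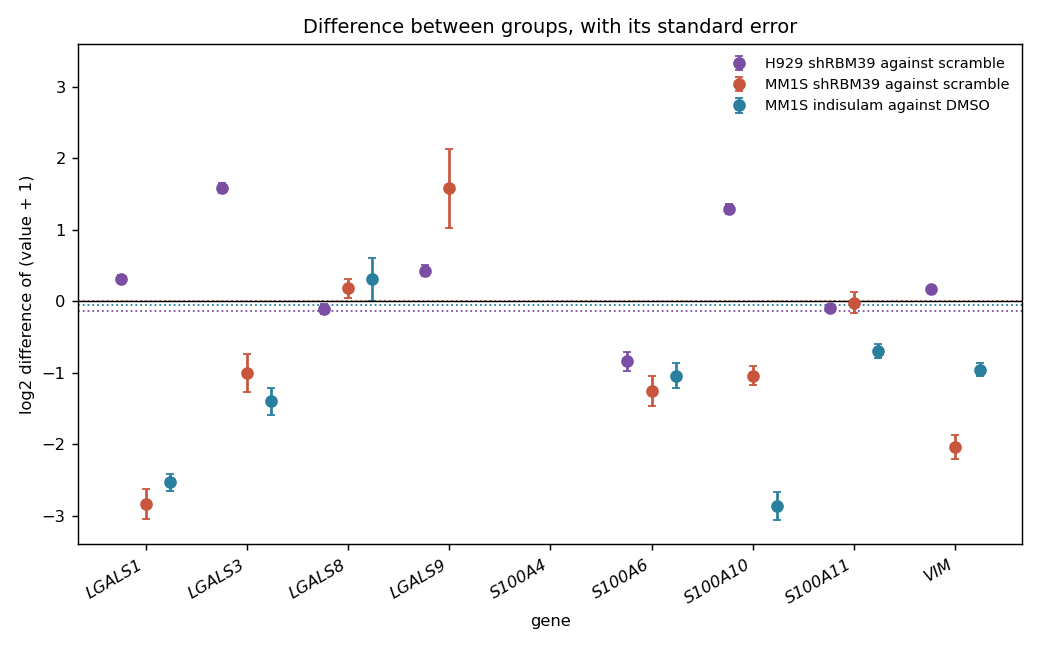
Log2 difference of (value + 1) between the groups of each comparison for the genes that passed the filter, with the limma standard error as bars; dotted lines mark the median of all genes tested. In both MM1S comparisons LGALS1, LGALS3, S100A6, S100A10 and VIM lie below 0 and LGALS8 above it. In H929, LGALS3 at 1.59 and S100A10 at 1.30 stand highest, while the H929 sign of VIM turned with quantile normalization, that of S100A11 with median scaling and that of LGALS8 with both.

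In H929 most of these genes were higher in the libraries labelled shRBM39, where RBM39 was also higher, and S100A6 was lower. Galectin-3 and S100A10 differed most. LGALS3 was at 349, 389.2 and 409.9 FPKM in the libraries labelled shRBM39, against 120, 118.3 and 141.2 FPKM in those labelled scramble, a log2 difference of 1.59 ± 0.0707 (SE, adjusted p = 1.81e-09 by limma). The groups were far apart, 3.02-fold by the means. S100A10 was at 35.7, 29.7 and 30 FPKM in the libraries labelled shRBM39, against 11.7, 12.2 and 13.2 FPKM in those labelled scramble, a log2 difference of 1.30 ± 0.0712 (SE, adjusted p = 4.88e-09 by limma). The median of all 10360 genes tested was -0.13, and relative to it these differences were 1.73 and 1.43.

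LGALS1 and VIM were the 2 most abundant of the 9 in H929 and differed little. LGALS1 was at 1055, 906.2 and 997.2 FPKM in the libraries labelled shRBM39, against 750.7, 794.7 and 828.5 FPKM in those labelled scramble, a log2 difference of 0.32 ± 0.0557 (SE, adjusted p = 1.99e-04 by limma), or 0.45 relative to the median. After quantile normalization the difference was 0.01 (adjusted p = 0.915 by limma), and the call was lost. As a share of the column total, LGALS1 was 0.236% in the libraries labelled shRBM39 and 0.211% in those labelled scramble. VIM was at 990.7, 908.6 and 956.8 FPKM in the libraries labelled shRBM39, against 851.8, 849.4 and 829 FPKM in those labelled scramble, a log2 difference of 0.17 ± 0.0417 (SE, adjusted p = 0.00211 by limma) that turned to -0.16 (adjusted p = 3.45e-04 by limma) after quantile normalization. For VIM the direction in H929 therefore depends on the scaling. Its share of the column total was 0.228% in the libraries labelled shRBM39 and 0.225% in those labelled scramble.

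S100A6 was the 1 member called lower in H929. It was at 7.1, 9.69 and 6.78 FPKM in the libraries labelled shRBM39, against 15.3, 12.4 and 16.8 FPKM in those labelled scramble, a log2 difference of -0.84 ± 0.128 (SE, adjusted p = 1.57e-04 by limma), or -0.71 relative to the median. The groups did not overlap. LGALS9 was at 8, 7.99 and 7.88 FPKM in the libraries labelled shRBM39, against 6.11, 4.82 and 6.13 FPKM in those labelled scramble, a log2 difference of 0.43 ± 0.0787 (SE, adjusted p = 2.77e-04 by limma), or 0.56 relative to the median.

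LGALS8 and S100A11 did not pass in H929 and their groups overlapped. LGALS8 was at 1.4 to 1.66 FPKM in the libraries labelled shRBM39, against 1.56 to 1.78 FPKM in those labelled scramble, a log2 difference of -0.11 (adjusted p = 0.201 by limma), or 0.03 relative to the median. S100A11 was at 234.3 to 244.3 FPKM in the libraries labelled shRBM39, against 242.6 to 268 FPKM in those labelled scramble, a log2 difference of -0.10 (adjusted p = 0.0594 by limma), or 0.04 relative to the median. Both signs thus turned with the scaling. Quantile normalization took S100A11 the other way, to a called -0.26 (adjusted p = 1.43e-04 by limma), and the gene also passed with the replicate block (adjusted p = 0.035 by limma), without scramble replicate 3 (-0.13, adjusted p = 0.0245 by limma) and without the library labelled shRBM39 replicate 1 (-0.12, adjusted p = 0.0286 by limma). S100A4 was below the filter: its FPKM values were 10, 6 and 15 times the smallest step in the libraries labelled shRBM39, after allowing for depth, against 4, 1 and 4 times in those labelled scramble. That would be so few reads that counting error is large.

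Of the 8 genes tested in H929, 5 were called higher, against 24.1% of all genes tested, and 1 lower, against 48.1%, with 72.2% called in either direction. Quantile normalization changed the balance of the members to 3 higher and 3 lower, while median scaling left 5 higher and 1 lower. Groups did not overlap for 6 of the 8 genes tested, 5 higher and 1 lower, and for 74.7% of all genes tested, 25.1% higher and 49.6% lower. As deposited 33.4% of all calls were higher, 54.3% after median scaling and 49.6% after quantile normalization. Log2 distances between relatives within a library were compared between groups 7 times, for gene pairs chosen after their values were seen. The log2 distance of S100A10 to S100A11 was -2.87 ± 0.112 in the libraries labelled shRBM39 and -4.26 ± 0.153 in those labelled scramble (mean ± SD, n = 3 each, two-sided exact permutation p = 0.1, 0.14 adjusted over the 7). It was -6.08 ± 0.202 with indisulam and -3.90 ± 0.164 in DMSO (n = 3 each, exact permutation p = 0.1, 0.14 adjusted). The distance of LGALS3 to LGALS1 in H929 was -1.36 ± 0.202 in the libraries labelled shRBM39 and -2.64 ± 0.0967 in those labelled scramble (n = 3 each, exact permutation p = 0.1, 0.14 adjusted). That of LGALS3 to LGALS8 was 7.26 ± 0.132 in the libraries labelled shRBM39 and 5.57 ± 0.133 in those labelled scramble, and -2.53 ± 0.730 with indisulam and -0.83 ± 0.135 in DMSO (n = 3 each, exact permutation p = 0.1, 0.14 adjusted, for both). In the knockdown the distance of S100A10 to S100A11 was -4.75 ± 0.0927 with shRBM39 and -3.73 ± 0.335 with scramble, and that of LGALS3 to LGALS8 was -1.63 ± 0.0829 with shRBM39 and -0.44 ± 0.544 with scramble (n = 2 each, exact permutation p = 0.333 for both). The smallest p that 3 against 3 libraries allow is 0.1, and 0.333 for 2 against 2, so none of the 7 could reach 0.05.

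The annexins are the main targets of several S100 proteins, and annexin A2 forms a tetramer with S100A10 that binds the giant scaffold protein AHNAK under the membrane. In MM1S the genes of all 3 proteins were lower in both comparisons, with AHNAK untested in that of indisulam. ANXA2 was at 110.8 and 108.8 TPM with shRBM39, against 209.3 and 253.1 TPM with scramble, a log2 difference of -1.06 ± 0.139 (SE, adjusted p = 0.0205 by limma). In the indisulam comparison it was at 82 to 88.5 TPM, against 341.9 to 349.8 TPM in DMSO, a log2 difference of -2.02 ± 0.0737 (SE, adjusted p = 2.56e-05 by limma). No library overlapped in either comparison. AHNAK was at 3.11 and 8.79 TPM with shRBM39, against 27.7 and 38.8 TPM with scramble (log2 difference -2.41, adjusted p = 0.0347 by limma). It was at 0.51 to 1.11 TPM with indisulam, against 9.65 to 11.2 TPM in DMSO. There AHNAK passed the filter only through DMSO, where it was high, so its log2 difference of -2.70 is given with no test. In H929, S100A10 was higher in the libraries labelled shRBM39, while ANXA2 was lower at 30.1 to 36.8 FPKM in the libraries labelled shRBM39, against 40.6 to 41.3 FPKM in those labelled scramble (-0.32, adjusted p = 5.87e-04 by limma, with -0.16 and an adjusted p of 0.0533 after median scaling). AHNAK was at 2.18 to 2.84 FPKM in the libraries labelled shRBM39, against 0.916 to 1.10 FPKM in those labelled scramble, and passed the H929 filter only through the libraries labelled shRBM39.

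**Figure D3:**
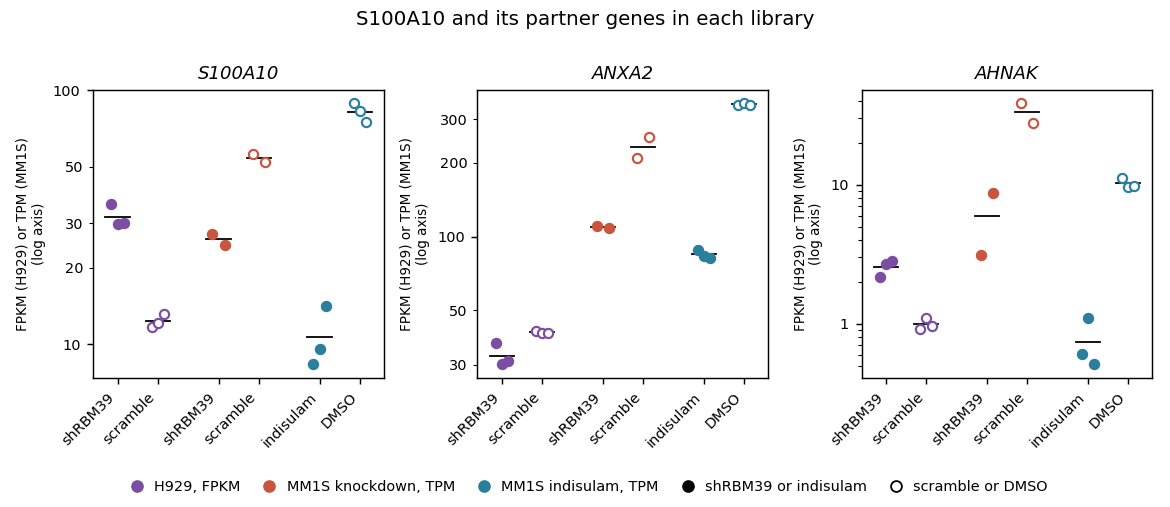
Levels of S100A10, ANXA2 and AHNAK in each expression library, in FPKM for H929 and TPM for MM1S, on log axes; filled points are shRBM39 or indisulam libraries, open points scramble or DMSO libraries, and lines are group means. With indisulam ANXA2 lies at 82 to 88.5 TPM, against 341.9 to 349.8 TPM in DMSO, and in H929 only ANXA2 of the 3 lies lower in the libraries labelled shRBM39.

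Over the whole list of 13 annexins, 2 of 9 tested fell and 0 rose in the knockdown, where 6.35% of all genes tested were called lower, with a median log2 difference of -0.44 against -0.000753 over all genes tested, and 5 of 7 fell and 0 rose with indisulam, where 21.5% were called lower, with a median of -0.47 against -0.05. ANXA5 was the second in the knockdown (-0.67, adjusted p = 0.0322 by limma), and ANXA11, which binds S100A6, fell with indisulam (-0.69, adjusted p = 0.00233 by limma), as did ANXA6 (-0.47, adjusted p = 0.00472 by limma), which did not pass after median scaling (-0.46, adjusted p = 0.0528) or quantile normalization (-0.14, adjusted p = 0.145). In H929, 4 of 7 annexins were lower and 0 higher as deposited, where 48.1% of all genes were called lower. Their median was -0.19 against -0.13. The 4 include ANXA1, which passed the filter through the libraries labelled scramble alone. Median scaling gave 1 lower and 1 higher, where 3312 of all 10360 genes tested were called lower and 3932 higher. Quantile normalization gave 2 lower and 1 higher, where 3620 genes were called lower and 3567 higher. Of the other S100 partners, 1 of 13 fell in the knockdown, near the 6.35% of all genes, and 5 of 12 with indisulam, against 21.5%, with 0 higher in either as deposited. The 5 with indisulam include AHNAK, which passed the filter through DMSO alone. CACYBP, the S100A6 partner, fell with indisulam (-0.55, adjusted p = 0.0102 by limma), but not after quantile normalization (-0.24, adjusted p = 0.0707). In H929 5 of 12 were higher and 5 lower, against 24.1% and 48.1% of all genes, and the myosin gene MYH9, a target of S100A4, was lower (-1.23, adjusted p = 2.17e-10 by limma). The 5 higher include AHNAK, which passed that filter through the libraries labelled shRBM39 alone. The list's medians were -0.22 in the knockdown, -0.41 with indisulam and -0.05 in H929, against -0.000753, -0.05 and -0.13 over all genes.

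Few other members of the families were expressed. Of 16 other S100 genes, 3 passed the filter in the knockdown, 2 with indisulam and 2 in H929. S100A13, which aids release of growth factors that lack a signal peptide, was at 0.68 to 2.23 TPM with indisulam, against 5.65 to 6.07 TPM in DMSO. It passed that filter only through DMSO, where it was high, so its log2 difference of -1.65 is given with no test. In H929 it was lower too, at 3.40 to 5.20 FPKM in the libraries labelled shRBM39, against 6.01 to 6.85 FPKM in those labelled scramble (-0.45, adjusted p = 0.00224 by limma). S100Z averaged 1.51 FPKM in the libraries labelled shRBM39, against 0.654 FPKM in those labelled scramble, and passed the filter only through the higher group. In the knockdown 0 of the 3 passed. Of 12 other galectin genes, 3, 2 and 2 passed the filter in the knockdown, with indisulam and in H929, and LGALS12 in H929 was the 1 called. It averaged 1.35 FPKM in the libraries labelled shRBM39, against 0.807 FPKM in those labelled scramble, and passed the filter only through the higher group, so the call is no support.

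Among other intermediate filament and linker genes, 2 of 11 tested fell and 0 rose in the knockdown, where 6.35% of all genes were called lower, and 3 of 7 fell and 0 rose with indisulam, where 21.5% were. The medians were -0.45 against -0.000753 over all genes and -0.38 against -0.05. Lamin B1 (LMNB1), a nuclear filament protein, was at 30.6 and 33.1 TPM with shRBM39, against 56.7 and 66.7 TPM with scramble (-0.93, adjusted p = 0.0249 by limma). With indisulam it was at 8.68 to 14.5 TPM, against 58.8 to 69.3 TPM in DMSO (-2.47, adjusted p = 2.84e-04 by limma). Lamin A (LMNA) fell with indisulam (-1.24, adjusted p = 7.65e-04 by limma). In H929 the count was 3 of 8 higher and 4 lower, against 24.1% and 48.1% of all genes, with a median of -0.20 against -0.13: LMNB1 was higher (0.40, adjusted p = 4.80e-06 by limma), while LMNA was lower (-0.85, adjusted p = 1.70e-09 by limma).

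Over the 16 expression libraries, each centred on its own control group, the genes most like LGALS1 by Pearson's r of log2(value + 1) were C12orf75 (0.99), the myosin light chain gene MYL12A (0.99), RPL39L (0.98), ASL (0.98) and the spindle motor gene KIF11 (0.98), among 9267 genes tested in all 3 comparisons. For S100A6 they were HPGD (0.96), the cell cycle kinase gene WEE1 (0.95), GLCE (0.94), the cytokinesis gene ANLN (0.94) and RTKN2 (0.94). Between the members, r was 0.92 for LGALS1 and VIM, 0.92 for LGALS3 and S100A10, 0.70 for LGALS1 and S100A6, and 0.27 for LGALS3 and S100A6. LGALS8 had negative r with each of the 6 others compared, at -0.18 to -0.59. These libraries share groups and tables, so the values describe a common pattern of group differences and carry no p. LGALS1 and S100A6 were both selected on their fall in MM1S, so a positive r between them is partly built in by that choice.

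Vimentin and galectin-1 are also stromal genes, so markers of other cells were read beside them. The summed level of 12 fibroblast or stroma markers was 29.3 to 33.2 TPM with shRBM39, against 41.9 to 61.4 TPM with scramble, and 13.4 to 24.4 TPM with indisulam, against 37.9 to 43.6 TPM in DMSO. Of these sums SPARC made up 20.6 to 24.9 TPM with shRBM39, 35 to 52.1 TPM with scramble, 10.1 to 18.8 TPM with indisulam and 31.3 to 34.6 TPM in DMSO. COL1A2, COL3A1, COL6A3, DCN, LUM, THY1, PDGFRA and FAP were below 0.5 TPM in all 10 MM1S expression libraries, while SPARC, FN1, COL1A1 and PDGFRB were not. FN1 was at 4.23 and 7.16 TPM with shRBM39, against 5.4 and 5.59 TPM with scramble. With indisulam FN1 was at 2.44 to 4.75 TPM, against 6.02 to 8.51 TPM in DMSO (log2 difference -0.94, adjusted p = 0.0248 by limma). The sum of 10 monocyte or macrophage markers was 8.69 to 12.2 TPM with shRBM39, against 20.6 to 24 TPM with scramble, with CD14, CSF1R and LYZ below 0.5 TPM, and 10.6 to 12.4 TPM with indisulam, against 11.7 to 13.3 TPM in DMSO. Most of these sums was CD68, at 5.42 and 9.55 TPM with shRBM39, against 15.4 and 20.5 TPM with scramble. With indisulam CD68 was at 6.9 to 8.09 TPM, against 9.18 to 10.5 TPM in DMSO. The 6 T cell markers summed to 0.98 to 1.74 TPM with shRBM39, against 4.73 to 5.76 TPM with scramble, and the 5 endothelial markers to 19 to 25 TPM with shRBM39, against 12.6 to 23.2 TPM with scramble. With indisulam the T cell sum was 1.01 to 1.53 TPM, against 3.16 to 4.34 TPM in DMSO, and the endothelial sum 4.44 to 10 TPM with indisulam, against 4.77 to 5.63 TPM in DMSO. In H929 the stroma sum was 0.826 to 1.46 FPKM in the libraries labelled shRBM39, against 2.31 to 2.37 FPKM in those labelled scramble. The H929 monocyte sum was 14.2 to 15.3 FPKM in the libraries labelled shRBM39, against 26 to 28.4 FPKM in those labelled scramble. The T cell sum was 15.7 to 18.5 FPKM in the libraries labelled shRBM39, against 39.3 to 47.1 FPKM in those labelled scramble, mostly CD3E. The endothelial sum was 0.746 to 0.918 FPKM in the libraries labelled shRBM39, against 1.58 to 2.01 FPKM in those labelled scramble. The part of any of these sums in the results was not tested.

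RIP asks which RNAs come down with RBM39. S100A11, LGALS1, LGALS3, S100A10 and LGALS8 were lower in the RBM39 library than in the IgG library, and VIM was close to level. LGALS1 had 54.3 FPKM with the RBM39 antibody and 209.1 FPKM with IgG, a log2 ratio of (value + 1) of -1.92. S100A11 had 1126 FPKM with RBM39 and 5321 FPKM with IgG (-2.24), and S100A10 had 8.08 FPKM with RBM39 and 21.7 FPKM with IgG (-1.32). LGALS3 had 1.40 FPKM with RBM39 and 20.4 FPKM with IgG (-3.16), and LGALS8 had 0.101 FPKM with RBM39 and 18.1 FPKM with IgG (-4.12). These 5 were at least 2-fold lower with RBM39, as were 23.9% of the 10966 genes that reached 1 FPKM in at least 1 of the libraries. VIM had 348.2 FPKM with RBM39 and 279.0 FPKM with IgG (0.32), and LGALS9 had 1.93 FPKM with RBM39 and 1.21 FPKM with IgG (0.41), against a median of 0.02 over all these genes. S100A6 had 5.07 FPKM and S100A4 1.44 FPKM with RBM39 and both were listed at 0 with IgG, so no ratio is given; 22.7% of genes were at least 2-fold higher with RBM39 on the same scale. With 1 library on each side, none of these differences has a replicate check.

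**Figure D4:**
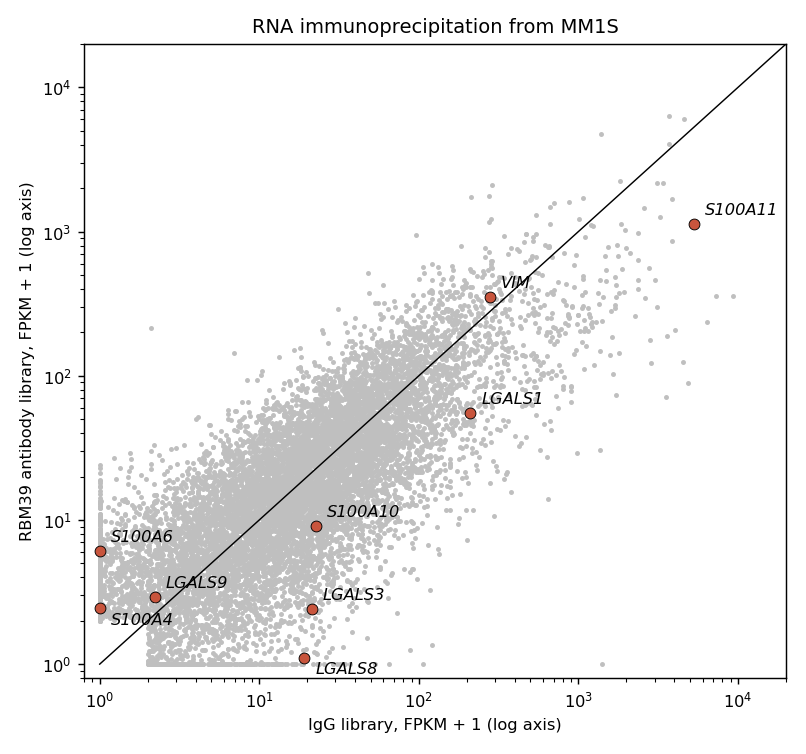
FPKM + 1 in the RBM39 antibody library (vertical, log axis) against the IgG library (horizontal, log axis) for the 10966 genes that reached 1 FPKM in at least 1 of them; named red points are the 9 genes and the line marks equal values. LGALS1, LGALS3, LGALS8, S100A10 and S100A11 lie below the line, VIM lies close to it, and S100A4 and S100A6 sit at the left edge because IgG lists them at 0.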

How the data were processed

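RNA sequencing of 16 H929 and MM1S libraries and 2 RIP libraries from MM1S was used as deposited. Per the labels' protocols, TRIzol was used for extraction and a SMARTER kit for mRNA libraries. No aligner or counter is named in the sources used here. The submitters' processing notes list GRCm38 and mm10, which are mouse builds, so no coordinate of the files was used. The H929 and RIP tables hold FPKM as deposited by the authors. Both MM1S tables are named FPKM, but the values the authors deposited are TPM, as shown by column totals of 999999.3 to 1000000.7. Column numbers (for RIP, antibody names) were looked up in the labels, which left 0 columns over. Rows without a symbol held 0.174% to 0.459% of the MM1S totals and were left out. Tests stayed within a table because normalization differed between tables. Low FPKM values in H929 come in steps, which gave the relative depth.

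The test was limma 3.58.1 with trend and robust settings, run in R 4.3.3, two-sided, on values taken as log2(value + 1). Genes entered it when they reached 1 in at least the number of libraries of the smaller group. SE is limma's moderated error. Calls were made at 0.05 on p-values adjusted by Benjamini-Hochberg across every gene tested. Log2 differences are on the log2(value + 1) scale, which understates changes of low genes. The members, the 7 gene lists and the 5 marker lists were chosen with earlier results of these data known. The genes named are the 9 members, RBM39, up to 4 called genes of each list by adjusted p, and the 5 genes most like LGALS1 and S100A6. S100 and galectin copies, SPARC and the other marker genes, and VIM-AS1, were named after their values were seen. Alternatives were 2 other filters (none, and at 5), 2 other scalings (by quantiles, by the median), a pseudocount of 0.1, plain limma, the replicate number as a block, and each library left out. Values relative to the median in H929, the crossed block in the knockdown and the list counts under each scaling were added after the data were seen. The fit was tested on simulated data with independent normal noise and 200 changed genes. In the data 1461 to 7477 genes were called, so the simulation cannot show how the fit behaves with that many changes. Other tools were Python 3.11.15, pandas 2.3.3 and SciPy 1.17.1. Promoter sequences are from RefSeq.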

Additional observations from a re-analysis of the deposited data

Results flagged for a closer look

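For 4 of the genes, every library labelled shRBM39 lay on one side of every scramble library in H929 and on the other side in MM1S. Groups did not overlap, in either direction, for 74.7% of all genes tested in H929 and 62.4% in the MM1S knockdown. The share of all genes apart in opposite directions was not counted, so the 4 are not shown to be unusual. The log2 difference of LGALS1 was 0.32 in H929, or 0.01 (limma adjusted p = 0.915) after quantile normalization, and -2.83 in MM1S. For LGALS3 it was 1.59 in H929 and -1.003 in MM1S, where it did not pass the test. S100A10 had 1.30 in H929 and -1.04 in MM1S. VIM had 0.17 in H929, which turned to -0.16 after quantile normalization, and -2.03 in MM1S. The difference between the lines was not tested, since the tables were normalized separately. RBM39 itself was higher in the H929 libraries labelled shRBM39 (log2 difference 2.81) and lower in the MM1S shRBM39 libraries (-1.69), so the H929 direction goes by labels that RBM39 contradicts. Set beside RBM39 in place of the labels, the deposited values of the 4 genes were higher in H929 and in the MM1S knockdown table in the libraries with more RBM39 transcript. That follows from how the 4 were taken, since RBM39 changes sign between the 2 tables as they do. S100A6 did not share this: it was lower in the H929 libraries with more RBM39 transcript (log2 difference -0.84) and higher in those of MM1S.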

How the results depend on the processing

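In H929, quantile normalization gave 3 members called higher, in place of 5, and 3 lower, in place of 1; it turned LGALS8 to 0.024 and VIM to -0.16. Median scaling turned LGALS8 to 0.055 and S100A11 to 0.066, and relative to the median of all genes they were 0.026 and 0.037. Leaving out 1 library gave 5 higher and 1 to 2 lower, where 6983 to 7359 of all 10360 genes tested were called, 2321 to 2472 of them higher. In the MM1S knockdown, no filter gave 0 members and 0 of 27260 genes called, with 4966 at an unadjusted p below 0.05, in place of 2 members and 1461 genes. Leaving out 1 library, which leaves 1 sample in a group that is assumed to vary like the other, gave 0 to 2 members lower, 0 to 1 higher (LGALS9, which passed the filter through 1 group alone) and 0 to 1769 genes. Without scramble replicate 1, 2444 genes were at an unadjusted p below 0.05, and 2565 without scramble replicate 2. S100A11 in the knockdown turned to 0.13 with quantile normalization and 0.0205 with median scaling, and ranged from -0.20 to 0.16 over libraries left out. With indisulam, leaving out 1 library gave 4 members lower, 0 to 1 higher and 2001 to 8839 genes called, in place of 4024; the lowest 3 counts, 2184, 2099 and 2001, came without a DMSO library and the highest without indisulam replicate 3. The cause was not tested. In the RIP values, 4 of the 9 members were higher with RBM39 under each pseudocount and relative to the median, which by definition splits all genes evenly. They were S100A6 and S100A4, both listed at 0 with IgG, and VIM (0.32) and LGALS9 (0.41). The count therefore does not set the members apart from other genes.

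The replicate numbers were not shown to pair the libraries: between same-numbered libraries the correlation of deviations was 0.129, -0.00044 and 0.0253 in H929, -0.142 in the knockdown and 0.137, -0.148 and -0.0255 with indisulam. With the replicate block, 2 members were called lower in H929, where 4999 of all 10360 genes tested were called lower and 2531 higher. In the knockdown the block left 1 member called lower, where 255 genes were called and S100A10 had a limma adjusted p of 0.0533. With shRBM39 replicate 1 crossed to scramble replicate 2 and the reverse, tried after seeing the data, the replicate block gave 772 genes and 2 members lower. With indisulam the block left 4 members lower and 3176 genes called. Depth is unknown in MM1S and RIP, so low values such as those of S100A4 and LGALS9 carry no counting interval.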

Other observations

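Actin cytoskeleton genes were mostly lower with indisulam. Of 20 tested, 4 fell and 0 rose in the knockdown, where 6.35% of all genes tested were called lower (median log2 difference -0.31 against -0.000753 over all genes tested). With indisulam 14 of 19 fell and 0 rose, where 21.5% were called lower (median -0.92 against -0.05). Quantile normalization gave 13 lower and 1 higher with indisulam, where 2785 of all 13445 genes tested were called lower and 3026 higher. Median scaling gave 15 lower and 1 higher, where 2959 genes were called lower and 2593 higher. Thymosin beta-4 (TMSB4X), which holds actin monomers, was at 1762 and 2674 TPM with shRBM39, against 4313 and 5327 TPM with scramble (-1.14, limma adjusted p = 0.0415). With indisulam it was at 1389 to 1612 TPM, against 3518 to 4069 TPM in DMSO (-1.35, limma adjusted p = 1.82e-04). TAGLN2, an actin-binding protein gene, was at 109.7 to 131.9 TPM with indisulam, against 375.9 to 391.8 TPM in DMSO (-1.68, limma adjusted p = 8.92e-05). The H929 count depended on the scaling: 3 of 19 were higher and 7 lower as deposited, against 24.1% and 48.1% of all genes (median -0.05 against -0.13). Median scaling gave 10 higher and 7 lower, where 3932 of all 10360 genes tested in H929 were called higher and 3312 lower. Quantile normalization gave 5 higher and 12 lower, where 3567 H929 genes were called higher and 3620 lower. TMSB4X was higher there, at 1519 to 1625 FPKM in the libraries labelled shRBM39, against 763.4 to 786.1 FPKM in those labelled scramble (1.03, limma adjusted p = 2.41e-10).

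Genes of glycoproteins that galectins bind, and of enzymes that build their sugars, gave counts with indisulam that depended on the scaling. In the knockdown 1 of 12 fell and 0 rose, near the 6.35% of all genes called lower: HAVCR2, the gene of the galectin-9 receptor TIM-3 (-0.70, limma adjusted p = 0.0475). With indisulam 1 of 11 rose and 0 fell, against 8.47% and 21.5% of all genes: LAMP1, a lysosomal glycoprotein gene (0.46, limma adjusted p = 0.007), and the list's median was 0.42 against -0.05 over all genes. Quantile normalization gave 8 of 11 higher and 0 lower, where 3026 of all 13445 genes tested were called higher and 2785 lower. Median scaling gave 6 higher and 1 lower, where 2593 genes were called higher and 2959 lower. As deposited 1139 genes were called higher and 2885 lower. The H929 count was 9 of 13 lower and 0 higher as deposited, where 48.1% of all genes were called lower and 24.1% higher (median -0.53 against -0.13). Among those lower were the hyaluronan receptor gene CD44 (-0.94, limma adjusted p = 1.50e-09) and B4GALT1, which adds galactose to glycans (-1.21, limma adjusted p = 2.28e-09). Either other scaling gave 8 lower and 3 higher. Of all 10360 genes tested, median scaling gave 3312 lower and 3932 higher, and quantile normalization 3620 lower and 3567 higher.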
